A study of Mus musculus with 10 samples.

Results

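Interferon-induced and MHC class I antigen presentation genes were examined in hearts of mice lacking 3-phosphoinositide-dependent kinase 1 (PDK1, gene Pdpk1) in adipocytes. A list of 42 gene symbols was matched to the deposited table of 11790 genes, 31 interferon-induced genes and 11 genes of class I presentation, and 38 were found. Of these, 32 had a mean of at least 1 FPKM (fragments per kilobase of gene, corrected for the size of the library) over all hearts and were tested, 23 interferon-induced and 9 class I. Stat2, Ddx58, Usp18, Oasl2, Oas1a and Tap1 were below that mean and are given as values only. Nlrc5, Ifih1, Xaf1 and Dhx58 were not analysed here.

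The samples were heart tissue of 5 A-PDK1KO mice, with adipocyte-specific deletion of PDK1, and of 5 control mice with the genotype PDK1 flox/flox. All mice were 10 to 11 weeks old and randomly fed. The PDK1 gene was floxed in controls, and the sources used here give neither the promoter that drove the deletion in adipocytes nor the sex. Pdpk1 itself stood at 2.73 to 4.04 FPKM in A-PDK1KO hearts and at 3.14 to 3.77 FPKM in control hearts, and heart RNA does not test a deletion in adipocytes.

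Interferons are cytokines that alert cells to viruses. Type I interferons bind a receptor coupled to the kinases JAK1 and TYK2, and a complex that includes STAT2 and IRF9 then binds the interferon-stimulated response element (ISRE) in the promoters of its targets. Interferon gamma acts at another element, GAS, and induces the genes that present peptides on MHC class I, in which the immunoproteasome cuts proteins, the TAP transporter carries the peptides into the endoplasmic reticulum, and tapasin helps load them on a heavy chain paired with beta-2-microglobulin. In the heart these genes have a basal level and are known to rise in viral myocarditis and after infarction.

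Promoters of 6 of the listed genes are shown, 3 interferon-induced genes whose windows hold the ISRE letters and 3 class I genes, of which B2m holds them and H2-K1 and Tap1 do not. The sequences are RefSeq windows of build GRCm38.p6, 250 bases before to 50 bases after the gene start, 5' to 3' along the gene. The windows are chr8:71537423-71537722, minus strand for Bst2, chr19:34640639-34640938, plus strand for Ifit1, chr4:156200769-156201068, minus strand for Isg15, chr2:122147437-122147736, plus strand for B2m, chr17:34000298-34000597, minus strand for H2-K1 and chr17:34187306-34187605, plus strand for Tap1. Capitals mark every match to the ISRE letters GAAANNGAAA on either strand, and a match on the other strand reads TTTCNNTTTC here. Only exact letters were counted, so a window without them may still hold a variant of the element. Overlapping matches were joined: Isg15 holds 3 matches in 1 run of 22 bases, Bst2 holds 2 in 1 run of 16 bases, and Ifit1 holds 2 that are apart.
Bst2: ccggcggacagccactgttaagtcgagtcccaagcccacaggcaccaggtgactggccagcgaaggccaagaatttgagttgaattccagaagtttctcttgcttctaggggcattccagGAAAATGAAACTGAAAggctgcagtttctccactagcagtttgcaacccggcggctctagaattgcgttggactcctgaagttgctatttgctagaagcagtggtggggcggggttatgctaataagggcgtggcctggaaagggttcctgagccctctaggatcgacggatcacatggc
Ifit1: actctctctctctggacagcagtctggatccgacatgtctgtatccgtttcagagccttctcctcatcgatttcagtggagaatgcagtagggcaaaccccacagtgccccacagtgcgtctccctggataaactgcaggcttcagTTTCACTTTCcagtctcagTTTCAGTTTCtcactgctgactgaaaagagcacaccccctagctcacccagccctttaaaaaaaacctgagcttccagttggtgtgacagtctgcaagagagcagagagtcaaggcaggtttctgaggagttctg
Isg15: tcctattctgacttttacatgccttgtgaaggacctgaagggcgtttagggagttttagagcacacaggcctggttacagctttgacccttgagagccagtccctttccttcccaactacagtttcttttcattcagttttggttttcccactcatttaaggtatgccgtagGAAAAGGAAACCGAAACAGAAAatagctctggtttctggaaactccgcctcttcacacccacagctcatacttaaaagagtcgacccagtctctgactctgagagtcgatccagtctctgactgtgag
B2m: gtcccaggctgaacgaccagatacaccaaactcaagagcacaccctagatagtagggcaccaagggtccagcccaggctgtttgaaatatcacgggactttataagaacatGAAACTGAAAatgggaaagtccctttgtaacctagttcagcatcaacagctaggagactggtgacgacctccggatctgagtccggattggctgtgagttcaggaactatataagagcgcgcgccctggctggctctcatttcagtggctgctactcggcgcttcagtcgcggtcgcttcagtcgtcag
H2-K1: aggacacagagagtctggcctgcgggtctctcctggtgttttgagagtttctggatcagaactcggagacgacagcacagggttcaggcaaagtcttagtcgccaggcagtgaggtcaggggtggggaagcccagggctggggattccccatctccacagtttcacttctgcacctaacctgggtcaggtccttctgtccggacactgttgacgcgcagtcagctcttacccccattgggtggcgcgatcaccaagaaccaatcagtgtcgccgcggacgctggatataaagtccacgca
Tap1: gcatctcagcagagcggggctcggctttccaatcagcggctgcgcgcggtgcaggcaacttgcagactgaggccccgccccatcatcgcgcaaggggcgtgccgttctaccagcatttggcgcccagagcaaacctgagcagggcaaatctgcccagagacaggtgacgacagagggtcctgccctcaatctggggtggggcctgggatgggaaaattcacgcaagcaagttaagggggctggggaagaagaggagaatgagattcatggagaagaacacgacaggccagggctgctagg

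A window was found for 34 of the 42 listed genes, and 8 had none. The ISRE letters were in 17 of 25 interferon-induced windows (68.0%) and in 2 of 9 class I windows (22.2%), those of B2m and H2-T23, against 3.99% of the 27025 genes with a window. The GAS letters TTCNNNGAA, which read the same on both strands, were in 9 of 25 interferon-induced windows (36.0%) and in 1 of 9 class I windows (11.1%), that of Psmb8, against 9.55% of all genes. In Bst2 a GAS match overlaps the first ISRE match, and only the overlapping bases of the GAS match are in capitals. Among tested interferon-induced genes the median log2 fold change was -0.21 for the 13 with ISRE letters and -0.18 for the 6 without. By GAS letters it was -0.17 for the 8 with and -0.23 for the 11 without. For class I genes it was -0.07 for the 2 with ISRE letters and -0.20 for the 6 without. By GAS letters it was -0.18 for the 1 class I gene with and -0.23 for the 7 without. A link of the letters to the differences was not tested. The windows of Tap1 and Psmb9, which lie head to head on chromosome 17, share 275 bases.

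Transcripts of most listed genes had lower means in A-PDK1KO hearts, and none passed the test. The log2 fold change, A-PDK1KO minus control on the log2(FPKM + 1) scale, was below 0 for 19 of 23 interferon-induced genes, with a median of -0.14. For class I genes it was below 0 for 6 of 9, with a median of -0.18. Over all 9987 tested genes 45.4% were below 0 and the median was 0.02. Bst2, the virion tether, and Psmb10, an immunoproteasome subunit, had the smallest p among genes with lower means, and the GTPase gene Iigp1 was the one gene whose hearts were all higher in A-PDK1KO.

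With limma at a Benjamini-Hochberg adjusted p under 0.05, 0 of 32 listed genes were called, against 208 of 9987 genes (2.08%) in the whole table. Without adjustment 11 of the 32 had a p under 0.05, against 15.6% of all genes. Of these, 10 had lower means in A-PDK1KO hearts (7.03% of all genes) and 1 a higher mean (8.53% of all genes). Limma voom on recovered reads called 0 of 31 listed genes, with 11 at an unadjusted p under 0.05, against 15.3% of all genes, and called 2.33% of 9808 genes. A p that misses the threshold does not show that the genotypes had equal levels. The log2(FPKM + 1) scale understates the change of low genes, and these p-values measure the spread between hearts. In bulk hearts, fewer cells of a type and less RNA per cell cannot be told apart.

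**Figure D1:**
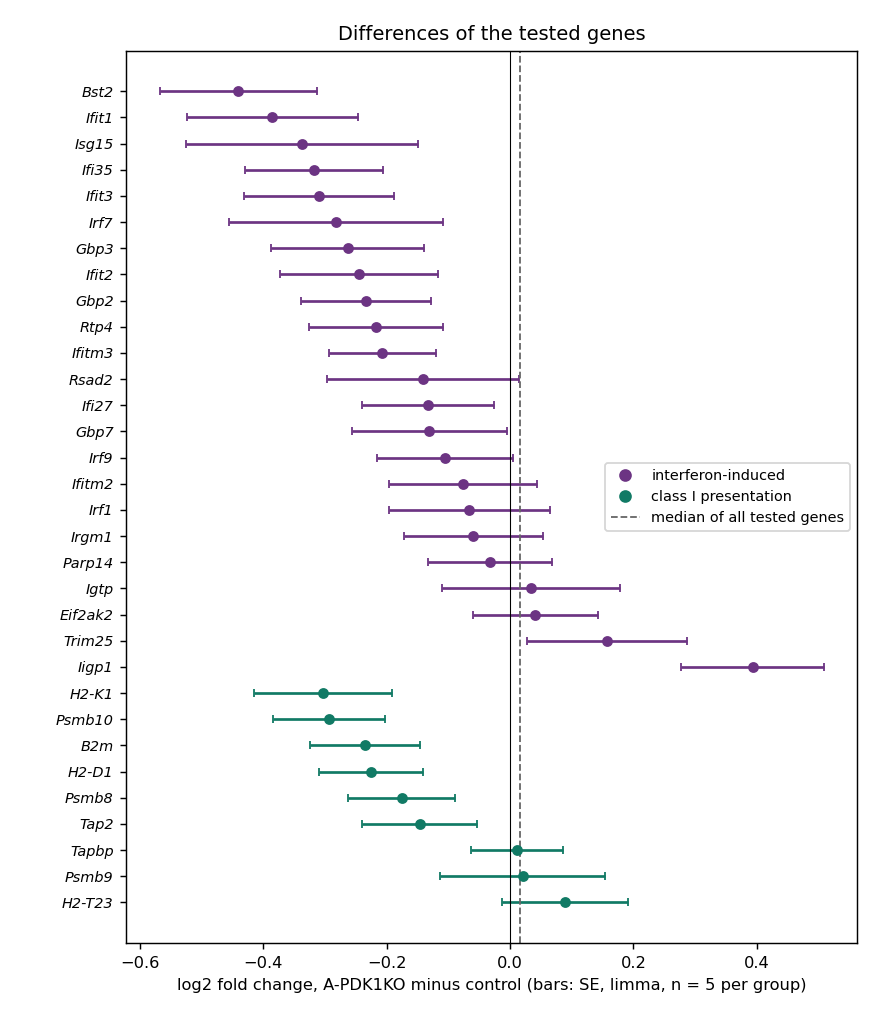
Log2 fold change of the 32 tested genes (x axis, A-PDK1KO minus control on the log2(FPKM + 1) scale; points, limma estimates; bars, SE, n = 5 hearts per group), interferon-induced above and class I below. The values run from -0.44 for Bst2 to 0.39 for Iigp1, with 25 of 32 genes below 0; the dashed line is the median of all tested genes, 0.02.

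Levels of class I and interferon-induced genes overlapped. B2m, the shared light chain, was the highest, with a mean of 184 FPKM over all 10 hearts. It was followed by Ifitm3 at 61.9, H2-D1 at 61.7, H2-K1 at 34.2 and Ifitm2 at 21.7 FPKM. Ifitm3 and H2-D1 did not differ beyond their spread. A mean of at least 10 FPKM was reached by 5 of 10 class I genes and by 3 of 28 interferon-induced genes, and a mean under 5 FPKM was found in 3 class I genes (Psmb8, Psmb9 and Tap1) and in 20 interferon-induced genes. The median coefficient of variation of interferon-induced genes was 22.3% among A-PDK1KO hearts and 16.9% among control hearts, and that of class I genes was 12.2% among A-PDK1KO hearts and 12.0% among control hearts.

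The hearts of one genotype differed among themselves. The median deviation of the interferon-induced genes from their control mean, on the log2 scale, was -0.30, 0.13, -0.15, -0.12 and -0.21 in A-PDK1KO replicates 1 to 5, and 0.03, -0.01, -0.07, 0.06 and 0.06 in control replicates 1 to 5. For class I genes it was -0.22, -0.04, -0.14, -0.14 and -0.31 in A-PDK1KO hearts, and -0.12, 0.08, -0.06, -0.05 and 0.17 in control hearts. A-PDK1KO replicates 1, 3, 4 and 5 were below every control heart in both lists. For class I genes replicates 3 and 4 (-0.136 and -0.137) were only just below control replicate 1 (-0.115). A-PDK1KO replicate 2 stood above every control heart for the interferon-induced genes and among the control hearts for class I genes. Over all tested genes the median was -0.07, 0.15, -0.03, 0.05 and -0.01 in A-PDK1KO replicates 1 to 5. It was -0.03, -0.003, -0.02, 0.11 and -0.05 in control replicates 1 to 5. Replicate 2 was the highest of the 10 hearts in 14 of 38 listed genes (36.8%), close to its share over all tested genes (35.7%). Control replicate 1 was the highest in 8 of 28 interferon-induced genes (28.6%), against 6.56% of all tested genes, and A-PDK1KO replicate 5 was the lowest in 5 of 10 class I genes, against 7.87% of all tested genes. With all hearts, 0 of the 32 tested genes had every A-PDK1KO heart below every control heart, against 2.23% of all genes. A-PDK1KO replicate 2 was left out of this count after its high values were seen, a choice that favours such genes. No other heart was left out of it. Without replicate 2 the number was 7 (Irf9, Ifit1, Ifit3, Ifitm3, Rtp4, Gbp2 and Psmb10), against 4.06% of all genes. No conclusion is drawn from these 7. In the limma fit without replicate 2, Psmb10 was called (1.51% of all genes).

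**Figure D2:**
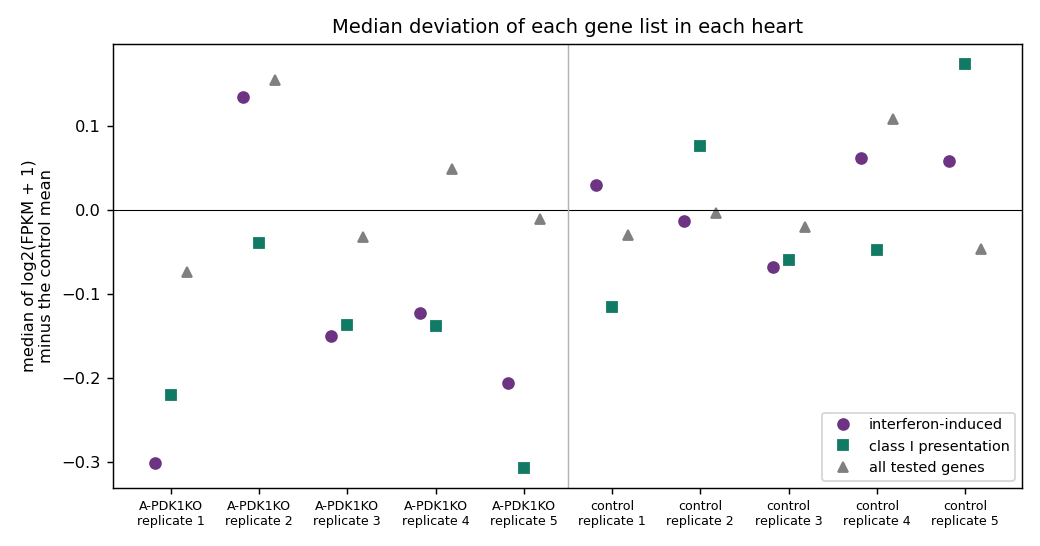
Median over each gene list of log2(FPKM + 1) minus the gene's control mean (y axis) in each of the 10 hearts (x axis), for 28 interferon-induced genes, 10 class I genes and 9987 tested genes. The interferon-induced median is lowest in A-PDK1KO replicate 1 (-0.30) and the class I median in A-PDK1KO replicate 5 (-0.31), while in A-PDK1KO replicate 2 the median of all tested genes is 0.15.

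Depth, inferred from the FPKM values and exon lengths, was 9249256 to 11384423 reads per heart. Mitochondrially encoded reads took 34.3% to 41.5% of them in A-PDK1KO hearts and 32.7% to 40.4% in control hearts. Myl7, an atrial marker, was above 10 FPKM in 2 hearts of each genotype, A-PDK1KO replicates 3 and 5 and control replicates 2 and 5, and under 1 FPKM in the remaining hearts. Macrophage markers, 0 of 11 tested called, summed to 139 to 191 FPKM in A-PDK1KO hearts and to 161 to 197 FPKM in control hearts, with a median log2 fold change of -0.05. Endothelial markers, 0 of 10 called, summed to 274 to 377 FPKM in A-PDK1KO hearts and to 271 to 312 FPKM in control hearts. Cardiomyocyte markers, which place the samples as heart muscle, were below 0 in 8 of 8 genes, 0 called, with sums of 12515 to 14376 FPKM in A-PDK1KO hearts and of 13229 to 16020 FPKM in control hearts. Limma voom called 0 of the macrophage and 0 of the endothelial markers, and 1 of the 8 cardiomyocyte markers, against 2.33% of all genes. Unadjusted limma p was under 0.05 in 0 macrophage, 1 endothelial and 4 cardiomyocyte markers, against 15.6% of all genes. The part of macrophages, endothelial cells and cardiomyocytes in the differences below was not tested beyond a macrophage covariate. Under that covariate 0 listed genes were called (1.2% of all genes). Other fits took Myl7 as a covariate or kept only the hearts with Myl7 under 10 FPKM, and are among the settings compared below.

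**Figure D3:**
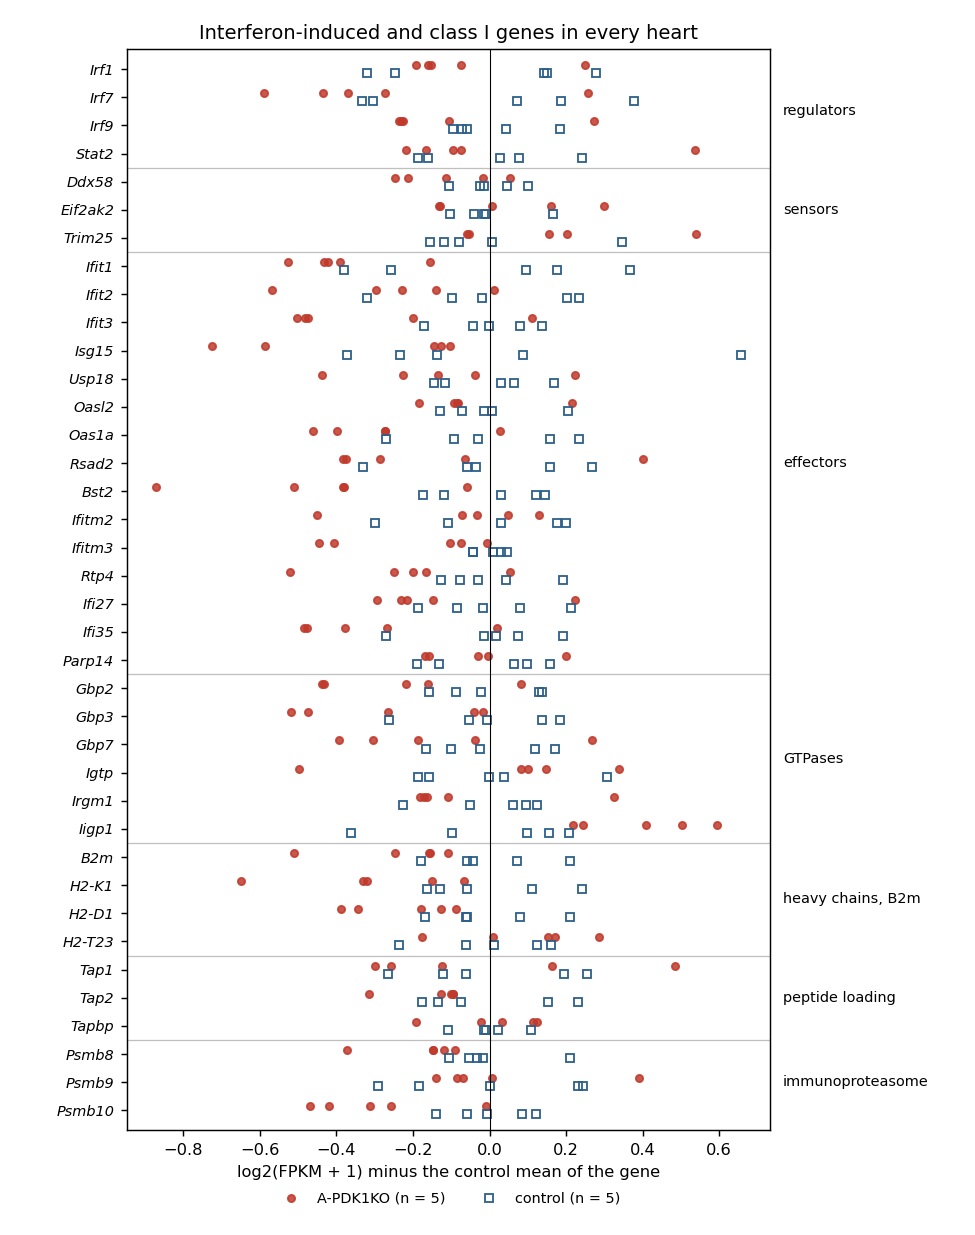
Log2(FPKM + 1) of the 38 listed genes found in the table minus the control mean of each gene (x axis), 1 point per heart, A-PDK1KO (n = 5) and control (n = 5), grouped by role. In Iigp1 alone the A-PDK1KO points all lie to the right of the control points; in the other genes the groups overlap.

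The transcription factors that carry the interferon signal were at low levels, and no difference between genotypes passed the test. Irf7, which amplifies type I interferon induction, stood at 1.30, 2.55, 1.20, 0.977 and 1.46 FPKM in A-PDK1KO replicates 1 to 5 and at 2.86, 1.36, 1.41, 2.38 and 2.13 FPKM in control replicates 1 to 5. Its log2 fold change was -0.28 ± 0.17 (SE; limma adjusted p = 0.481, n = 5 per group). The groups overlapped, with control replicates 2 and 3 among the A-PDK1KO hearts and A-PDK1KO replicate 2 among the control hearts. Irf9, the DNA-binding subunit of the complex with STAT2, was at 1.70, 2.51, 1.48, 1.47 and 1.49 FPKM in A-PDK1KO hearts and at 1.77, 1.72, 1.80, 2.00 and 2.30 FPKM in control hearts (log2 fold change -0.11, adjusted p = 0.717). A total of 4 of its A-PDK1KO values were below all control values and that of replicate 2 was above all of them.

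Irf1, which drives class I and GTPase genes downstream of interferon gamma, was at 3.09, 4.57, 3.19, 3.45 and 3.21 FPKM in A-PDK1KO hearts and at 2.75, 4.19, 2.94, 4.16 and 4.67 FPKM in control hearts. The log2 fold change was -0.07, and 0.14 in the 6 hearts with Myl7 under 10 FPKM. Stat2, a transcription factor of type I signalling, was at 0.686, 1.75, 0.626, 0.771 and 0.798 FPKM in A-PDK1KO hearts and at 0.930, 0.999, 0.663, 1.24 and 0.693 FPKM in control hearts, and was not tested.

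The role of viral RNA sensing had only 2 tested genes, Trim25 and Eif2ak2. Both were above 0, by small differences that did not pass the test. Trim25, the ubiquitin ligase that activates RIG-I, was at 2.92, 4.90, 3.52, 3.68 and 2.90 FPKM in A-PDK1KO hearts and at 2.65, 3.09, 2.84, 4.17 and 2.74 FPKM in control hearts (log2 fold change 0.16, adjusted p = 0.623). Eif2ak2, the kinase PKR that halts translation on double-stranded RNA, was at 1.24, 1.75, 1.47, 2.03 and 1.25 FPKM in A-PDK1KO hearts and at 1.29, 1.39, 1.43, 1.76 and 1.44 FPKM in control hearts. Both overlapped between genotypes, and Eif2ak2 was at -0.02 without A-PDK1KO replicate 4. Ddx58, which encodes RIG-I itself, was not tested and had a lower mean in A-PDK1KO hearts. It averaged 0.862 ± 0.165 FPKM there and 1.00 ± 0.108 FPKM in control hearts (SD, n = 5 each).

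All 12 tested antiviral effectors had log2 fold changes below 0, with a median of -0.23 and a range of -0.44 to -0.03, and 0 were called. Unadjusted limma p was under 0.05 in 5 of them, against 15.6% of all genes: Bst2, Ifi35, Ifit1, Ifit3 and Ifitm3. Bst2 (mm10 chromosome 8, 71534255 to 71537456, minus strand), or tetherin, holds budding virions at the cell surface. It stood at 8.55, 11.2, 12.4, 15.8 and 12.4 FPKM in A-PDK1KO replicates 1 to 5 and at 18.3, 15.1, 16.8, 18.0 and 14.5 FPKM in control replicates 1 to 5. A total of 4 A-PDK1KO hearts were below every control heart, and replicate 4 was within the control range. The means were 12.1 ± 2.60 FPKM in A-PDK1KO hearts and 16.5 ± 1.72 FPKM in control hearts (SD, n = 5 each), with a log2 fold change of -0.44 ± 0.13 (SE), at a limma adjusted p of 0.107. The adjusted p was 0.0451 without A-PDK1KO replicate 4, a fit that called 1.46% of all genes, and 0.0451 to 0.203 over the fits that left out 1 heart each. Bst2 also marks plasmacytoid dendritic cells, and of their other markers Tcf4 averaged 2.07 FPKM in A-PDK1KO hearts and 1.93 FPKM in control hearts, while Siglech, Ccr9 and Irf8 were not analysed here.

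The IFIT proteins bind viral RNA that lacks host cap marks. Ifit1 (chromosome 19, 34640871 to 34650009, plus strand) was at 1.18, 1.62, 1.23, 1.03 and 1.16 FPKM in A-PDK1KO hearts and at 2.77, 2.12, 1.24, 2.30 and 1.44 FPKM in control hearts. The groups overlapped through A-PDK1KO replicate 2 and control replicates 3 and 5. The A-PDK1KO mean was 0.630 times the control mean (limma adjusted p = 0.197, log2 fold change -0.39 ± 0.14 SE), on 30 to 68 recovered reads per heart. Its neighbour Ifit3 was at 2.45, 4.17, 2.39, 3.17 and 2.43 FPKM in A-PDK1KO hearts and at 4.28, 3.79, 3.65, 3.26 and 4.07 FPKM in control hearts (log2 fold change -0.31, adjusted p = 0.235). Only A-PDK1KO replicate 2 was inside the control range. Ifit3 shares 51.2% of its 50-base stretches with Ifit3b, so its reads could be split between the copies. Ifit2, of the same cluster, averaged 3.11 ± 0.594 FPKM in A-PDK1KO hearts and 3.88 ± 0.754 FPKM in control hearts.

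The IFITM proteins block virus entry at membranes and were the most abundant effectors. Ifitm3 was at 48.3, 65.8, 61.5, 62.8 and 49.7 FPKM in A-PDK1KO hearts and at 67.6, 68.4, 66.6, 64.2 and 64.2 FPKM in control hearts (difference of -0.21 ± 0.09 SE on the log2 scale, limma adjusted p = 0.275). The control hearts lay close together, replicates 1 and 5 of A-PDK1KO were far below them and replicate 2 was among them. Ifitm2 was at 15.9, 21.6, 21.0, 22.9 and 24.3 FPKM in A-PDK1KO hearts and at 22.6, 20.5, 25.1, 25.6 and 17.8 FPKM in control hearts, a log2 fold change of -0.08 that was 0.02 without A-PDK1KO replicate 1. Ifitm2 shares 48.5% of its 50-base stretches with other genes and is uncertain for that reason.

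Ifi35, a cytoplasmic partner of NMI, was at 4.59, 6.36, 5.03, 4.22 and 4.19 FPKM in A-PDK1KO hearts and at 6.20, 5.03, 6.65, 6.35 and 7.30 FPKM in control hearts (difference of -0.32 ± 0.11 SE on the log2 scale, limma adjusted p = 0.188). A-PDK1KO replicate 2 was above control replicates 1, 2 and 4, replicate 3 was level with the lowest control heart, and the remaining 3 A-PDK1KO hearts were below all controls.

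Isg15, the ubiquitin-like modifier, was at 4.60, 4.67, 4.76, 3.12 and 2.75 FPKM in A-PDK1KO hearts and at 8.77, 4.63, 3.78, 4.27 and 5.58 FPKM in control hearts. The groups overlapped, and control replicate 1 was far above the rest. That heart also stood apart in the 5 erythroid markers: Hbb-bs, a beta globin, was at 35.2 to 123 FPKM in A-PDK1KO hearts, and at 758 FPKM in control replicate 1 and 16.4 to 132 FPKM in the remaining control hearts. Summed, the 5 markers were at 68.6 to 228 FPKM in A-PDK1KO hearts and at 27.9 to 1391 FPKM in control hearts, and their part in the Isg15 values was not tested. The log2 fold change of Isg15 was -0.34 ± 0.19 (SE; limma adjusted p = 0.426), and -0.17 without that heart. The remaining tested effectors, Rsad2, Rtp4, Ifi27 and Parp14, had log2 fold changes of -0.22 to -0.03. Oas1a, an activator of RNase L, averaged 0.521 ± 0.208 FPKM in A-PDK1KO hearts and 0.842 ± 0.255 FPKM in control hearts on 6 to 22 reads, and shares 57.6% of its 50-base stretches with Oas1g, so its reads could be split between the copies. Usp18 and Oasl2 were likewise under 1 FPKM in both groups.

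**Figure D4:**
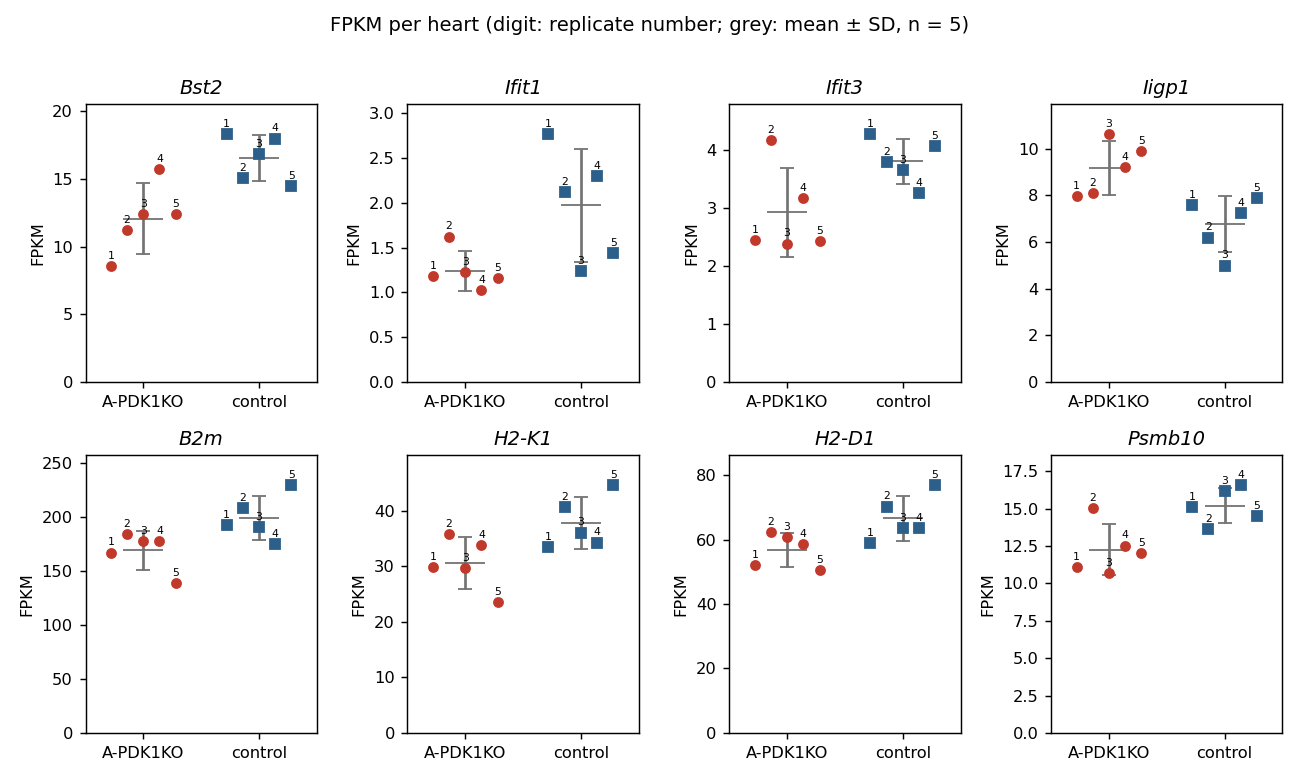
FPKM in each heart (y axis, from 0) of 4 interferon-induced genes (top) and 4 class I genes (bottom), A-PDK1KO left and control right, with the replicate number above each point and the mean ± SD in grey (n = 5 per group). Bst2 averages 12.1 FPKM in A-PDK1KO and 16.5 FPKM in control hearts, and Iigp1 9.16 FPKM in A-PDK1KO and 6.77 FPKM in control hearts.

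The interferon-inducible GTPases, which attack membranes around intracellular pathogens, went in both directions, with a median log2 fold change of -0.10 over 6 genes and 0 called. Iigp1, an immunity-related GTPase of the pathogen vacuole, stood at 7.95, 8.11, 10.6, 9.22 and 9.90 FPKM in A-PDK1KO replicates 1 to 5 and at 7.58, 6.18, 4.98, 7.23 and 7.89 FPKM in control replicates 1 to 5. Every A-PDK1KO heart was above every control heart, which held for 2.72% of all tested genes, though A-PDK1KO replicate 1 and control replicate 5 nearly met. The means were 9.16 ± 1.15 FPKM in A-PDK1KO hearts and 6.77 ± 1.19 FPKM in control hearts (difference of 0.39 ± 0.12 SE on the log2 scale, limma adjusted p = 0.114). Limma voom on 273 to 683 recovered reads per heart gave an adjusted p of 0.0694.

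Gbp2, a guanylate-binding protein, was at 7.13, 9.01, 6.01, 7.47 and 5.99 FPKM in A-PDK1KO hearts and at 7.91, 9.41, 8.32, 7.48 and 9.35 FPKM in control hearts (difference of -0.23 ± 0.11 SE on the log2 scale, limma adjusted p = 0.313). Its paralog Gbp3 was at 1.37, 2.26, 1.75, 2.21 and 1.30 FPKM in A-PDK1KO hearts and at 2.75, 1.75, 2.18, 2.28 and 2.63 FPKM in control hearts (log2 fold change -0.26, adjusted p = 0.332). The 2 genes overlapped between genotypes. Gbp7 had a log2 fold change of -0.13, Irgm1 of -0.06 and Igtp of 0.03, and Igtp was at -0.04 without A-PDK1KO replicate 4.

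Class I heavy chains and B2m had lower means in A-PDK1KO hearts for 3 of 4 genes, and 0 were called. B2m (chromosome 2, 122147686 to 122153083, plus strand) was at 167, 184, 178, 178 and 139 FPKM in A-PDK1KO replicates 1 to 5 and at 193, 209, 190.4, 175 and 229.6 FPKM in control replicates 1 to 5. Control replicate 4 lay among the A-PDK1KO hearts, and A-PDK1KO replicate 5 was far below all others. The means were 169 ± 18.0 FPKM in A-PDK1KO hearts and 199 ± 20.7 FPKM in control hearts, on at least 1238 recovered reads per heart (difference of -0.24 ± 0.09 SE on the log2 scale, limma adjusted p = 0.218).

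H2-K1, a classical heavy chain, was at 29.9, 35.8, 29.6, 33.8 and 23.6 FPKM in A-PDK1KO hearts and at 33.4, 40.7, 36.0, 34.2 and 44.6 FPKM in control hearts (difference of -0.30 ± 0.11 SE on the log2 scale, limma adjusted p = 0.204). H2-D1, the other classical heavy chain, was at 52.0, 62.4, 60.7, 58.5 and 50.5 FPKM in A-PDK1KO hearts and at 58.9, 70.2, 63.6, 63.6 and 76.9 FPKM in control hearts (difference of -0.23 ± 0.08 SE on the log2 scale, adjusted p = 0.213). In both, A-PDK1KO replicate 5 was lowest and control replicate 5 highest, and the groups overlapped. H2-T23, the nonclassical heavy chain Qa-1 that NK cells read, averaged 6.39 ± 0.883 FPKM in A-PDK1KO hearts and 5.94 ± 0.745 FPKM in control hearts, a log2 fold change of 0.09. H2-D1, H2-T23 and H2-K1 share 12.8%, 13.6% and 9.63% of their 50-base stretches with other genes. More than 10% was shared in 9 of the 40 genes checked, among them also Gbp7 (12.7%), Igtp (11.8%), Rtp4 (11.6%) and Ifitm3 (10.02%).

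The peptide loading genes had small differences. Tapbp, which encodes tapasin, was at 14.0, 17.7, 15.9, 17.6 and 16.6 FPKM in A-PDK1KO hearts and at 14.9, 16.4, 16.1, 17.5 and 16.0 FPKM in control hearts (log2 fold change 0.01, and -0.02 with median-of-ratios factors). Tap2, a subunit of the peptide transporter, was at 4.22, 5.07, 5.05, 4.95 and 5.08 FPKM in A-PDK1KO hearts and at 4.75, 5.16, 4.92, 6.62 and 6.22 FPKM in control hearts (log2 fold change -0.15, limma adjusted p = 0.497). Both overlapped. The other transporter subunit, Tap1, averaged 0.980 ± 0.478 FPKM in A-PDK1KO hearts and 0.965 ± 0.298 FPKM in control hearts.

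Among the immunoproteasome subunits, which replace the constitutive catalytic subunits and favour class I peptides, Psmb10 had the smallest p. Psmb10 (chromosome 8, 105935735 to 105938444, minus strand) was at 11.1, 15.0, 10.7, 12.5 and 12.0 FPKM in A-PDK1KO replicates 1 to 5 and at 15.1, 13.7, 16.1, 16.6 and 14.5 FPKM in control replicates 1 to 5. Only A-PDK1KO replicate 2 was within the control range. The log2 fold change was -0.29 ± 0.09 (SE; limma adjusted p = 0.130), with an adjusted p of 0.0410 without A-PDK1KO replicate 2 and of 0.0257 with median-of-ratios factors, a fit that called 2.07% of all genes. Over the fits that left out 1 heart each it was 0.0410 to 0.271.

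Psmb8 was at 2.96, 2.88, 2.81, 2.81 and 2.26 FPKM in A-PDK1KO hearts and at 3.17, 3.88, 2.92, 3.12 and 3.06 FPKM in control hearts (log2 fold change -0.18, limma adjusted p = 0.355). A-PDK1KO replicate 1 overlapped the control hearts. Psmb9 averaged 1.05 ± 0.329 FPKM in A-PDK1KO hearts and 1.03 ± 0.334 FPKM in control hearts. Set against the constitutive subunit that each replaces, Psmb10 was 21.6% ± 2.64 of Psmb7 in A-PDK1KO hearts and 26.7% ± 3.59 in control hearts (SD, n = 5 each), and the groups overlapped. Psmb8 was 3.10% of Psmb5 in A-PDK1KO hearts and 3.21% in control hearts, and Psmb9 was 1.82% of Psmb6 in A-PDK1KO hearts and 1.61% in control hearts. All 7 constitutive beta subunits had log2 fold changes below 0, with a median of -0.07, and 0 were called by limma or limma voom. In 2 of them unadjusted limma p was under 0.05, against 15.6% of all genes. In 1 of the 7, Psmb6, every A-PDK1KO heart (56.0 to 60.77 FPKM) was below every control heart (60.82 to 66.3 FPKM), as in 2.23% of all tested genes.

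The rest of the pathway was read from separate lists, chosen with earlier results known. None of 11 interferon ligand genes was analysed here. Of 8 tested receptor and kinase genes 0 were called, with a median log2 fold change of -0.06. The highest were Ifngr2, the signalling chain of the interferon gamma receptor (28.4 FPKM in A-PDK1KO and 29.9 FPKM in control hearts), Jak1 (22.7 FPKM in A-PDK1KO and 23.3 FPKM in control hearts) and Il10rb, shared with the lambda receptor (19.6 FPKM in A-PDK1KO and 21.2 FPKM in control hearts). Of 11 genes of nucleic acid sensing 0 were called, 10 were above 0 and the median was 0.08. Neither list had a gene at an unadjusted p under 0.05, and limma voom called 0 in both. Mavs, the mitochondrial adaptor of RIG-I, averaged 18.1 ± 1.63 FPKM in A-PDK1KO hearts and 17.0 ± 1.89 FPKM in control hearts.

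Among 12 tested brakes of interferon signalling 1 was called, against 2.08% of all genes. Ptpn11, the phosphatase SHP2, which also acts in growth factor signalling, stood at 35.9, 45.5, 33.5, 35.0 and 38.3 FPKM in A-PDK1KO hearts and at 28.9, 27.7, 27.1, 31.1 and 28.1 FPKM in control hearts. Every A-PDK1KO heart was above every control heart, as in 2.72% of all tested genes. Ptpn11 rose by a log2 fold change of 0.38 ± 0.08 (SE), at a limma adjusted p of 0.0353, a call lost with a replicate block (0.0713), on the TPM scale (0.1002), with a macrophage covariate (0.0550), in the 6 hearts with Myl7 under 10 FPKM (0.358) and in 7 of the 10 fits without 1 heart. The median of the 12 was 0.10. None of the other 11 was called, among them Socs3, an inhibitor of JAK kinases, at 2.14 ± 1.83 FPKM in A-PDK1KO hearts and 1.71 ± 0.603 FPKM in control hearts, where A-PDK1KO replicate 2 alone reached 5.36 FPKM.

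A list of 39 other tested interferon-induced genes had 34 below 0, a median of -0.13 and 1 called, against 2.08% of all genes. Unadjusted limma p was under 0.05 in 6 with lower and 1 with a higher mean, against 7.03% and 8.53% of all genes. The called gene, Trafd1, a feedback inhibitor of innate signalling, rose. It stood at 14.9, 17.7, 14.3, 13.6 and 14.2 FPKM in A-PDK1KO hearts and at 9.88, 12.0, 10.4, 12.2 and 10.0 FPKM in control hearts. Its groups did not overlap, as in the 2.72% of all tested genes that were higher without overlap. Its log2 fold change was 0.42 ± 0.09 (SE; limma adjusted p = 0.0304), a call lost on the TPM scale (0.0820), with a macrophage covariate (0.0521), in the 6 hearts with Myl7 under 10 FPKM (0.293) and in 6 of the 10 fits without 1 heart. The most abundant of the list, the surface proteins Ly6c1, Ly6a and Ly6e, had log2 fold changes of -0.03, -0.16 and -0.21 and were not called. Ly6e was at 20.8 to 25.7 FPKM in A-PDK1KO hearts and at 26.2 to 30.2 FPKM in control hearts, so every A-PDK1KO heart was below every control heart, as in 2.23% of all tested genes. Of 16 other tested class I genes 13 were below 0, with a median of -0.11 and 0 called by limma or limma voom. In 2 of them unadjusted limma p was under 0.05, against 15.6% of all genes. Calr, the chaperone calreticulin of the loading complex, had the smallest p, at 62.5 ± 3.68 FPKM in A-PDK1KO hearts and 77.3 ± 7.85 FPKM in control hearts (log2 fold change -0.30, limma adjusted p = 0.0661). Every A-PDK1KO heart was below every control heart in Calr, as in 2.23% of all tested genes. Its highest A-PDK1KO value was 65.3 FPKM and its lowest control value 67.6 FPKM. Calr was called when the minimum mean was set to 5 FPKM (limma adjusted p = 0.0413; 5.08% of 4602 genes called) and without control replicate 1 (0.0468, 1.23% called), and its adjusted p reached 0.159 in the fits without 1 heart.

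**Figure D5:**
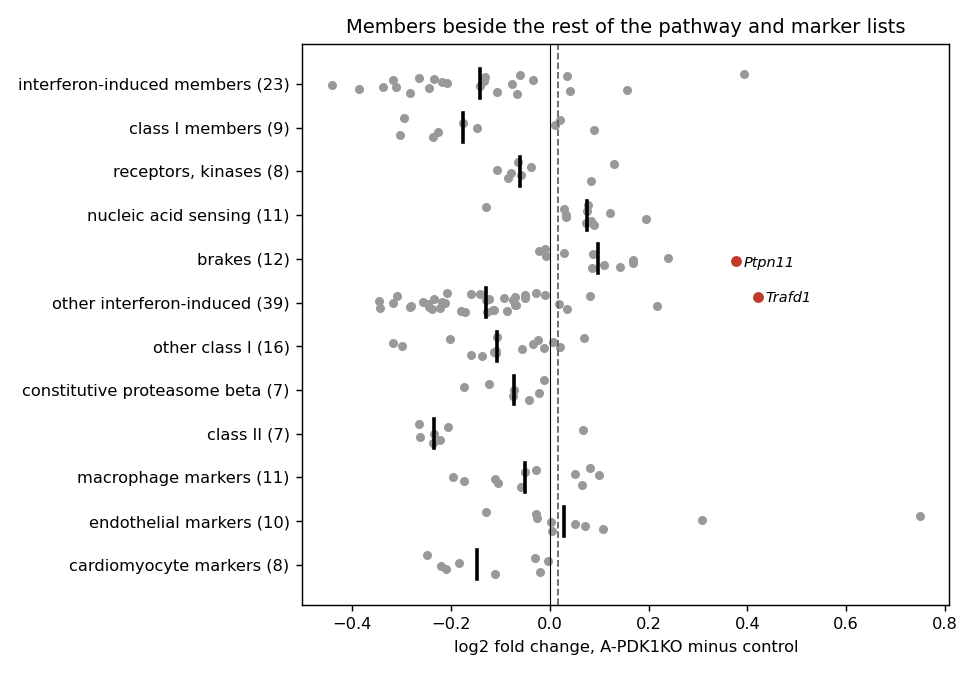
Log2 fold change, A-PDK1KO minus control (x axis), of every tested gene in 12 lists (y axis, number of genes in brackets); black bars are list medians, the dashed line the median of all tested genes (0.02), and red points the genes called by limma. The 2 red points, Ptpn11 at 0.38 and Trafd1 at 0.42, are outside the listed interferon-induced and class I genes, whose medians are -0.14 and -0.18.

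The summed level of the 28 interferon-induced genes was 138 to 194 FPKM in A-PDK1KO hearts and 183 to 197 FPKM in control hearts. That of the 10 class I genes was 255 to 333.8 FPKM in A-PDK1KO hearts and 325 to 400 FPKM in control hearts. Both sums overlapped between genotypes. Unadjusted limma p was under 0.05 in 7 of 23 interferon-induced genes and in 4 of 9 class I genes, against 15.6% of all genes. The difference between the lists was not tested. In the 6 hearts with Myl7 under 10 FPKM, 3 per genotype, the interferon-induced median was -0.13 and the class I median -0.07.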

How the data were processed

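RNA from heart tissue was measured in 10 samples, grouped by their genotype label. The authors deposited FPKM values, 1 column per sample for 11790 genes; the highest value of a gene was never under 1.00 FPKM. FastQC 0.11.7 is named in the labels' protocols, and Trimmomatic 0.38, HISAT2 2.1.0, featureCounts 1.6.3 and the build mm10 in the submitters' processing notes. The annotation, strand setting, library kit and batches could not be read from the labels or files, so overlapping and antisense genes and near-identical copies are uncertain. The labels number the tissues 1 to 5 in each group and say no more of their origin, so p-values measure the spread between these samples.

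Here FPKM were converted to log2(FPKM + 1). The 9987 genes whose mean over the 10 samples reached 1 FPKM entered a limma test (limma 3.58.1 and R 4.3.3; empirical Bayes with trend, two-sided, Benjamini-Hochberg over all of them, called at an adjusted p under 0.05). Whole reads were recovered with union exon lengths of GENCODE mouse release M21, within 0.05 of a read, for 98.5% of values, and tested with limma voom as an alternative. The limma fit was checked beforehand on simulated data with a set spread between hearts. It recovered 43% of 1.5-fold and 92% of 2-fold changes, with 10 false calls among 145. Changes of 1.5-fold were thus often missed. Motif letters were searched in Python 3.11.15 on both strands. Shared 50-base stretches were counted between transcripts of different genes.

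The listed genes, the other lists and the tests were chosen with earlier results of these data known. Values in every heart are given for up to 8 interferon-induced and 5 class I genes of smallest p, for the 2 highest genes of each role and for the regulators, with Isg15 added for its promoter. A gene of the receptor list is not reported here. Other settings were another pseudocount (0.1), other filters, scalings, covariates, a replicate block, robust variances, each heart left out, and the hearts with Myl7 under 10 FPKM.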

Additional observations from a re-analysis of the deposited data

Results flagged for a closer look

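In 60 genes, listed or named from the other pathway lists, the A-PDK1KO and the control hearts were each searched for a heart far from the rest of its group by Dixon's test at 95%. Chance marks about 1 in 20 groups, or 6 of the 120 searched, and 13 were marked. A-PDK1KO replicate 2 accounts for 8 of them, 7 high and 1 low. Over all 9987 tested genes that heart was the highest of both genotypes in 35.7% and the lowest in 3.86%. Its high values were therefore not particular to the genes searched. Dixon's test was not run over all tested genes, so the share of marks there is not known. The cause of the marks was not tested.

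Replicate 2 was above the other A-PDK1KO hearts in the regulators Irf1 (4.57 FPKM, others 3.09 to 3.45), Irf9 (2.51 FPKM, others 1.47 to 1.70) and Stat2 (1.75 FPKM, others 0.626 to 0.798). It was also above them in Oasl2 (1.03 FPKM, others 0.540 to 0.651), Ifi27 (11.0 FPKM, others 7.37 to 8.26), Irgm1 (4.11 FPKM, others 2.60 to 2.79) and Psmb9 (1.63 FPKM, others 0.818 to 1.01), and below them in Calr (56.1 FPKM, others 62.9 to 65.3).

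A-PDK1KO replicate 1 was below its group in Tap2 (4.22 FPKM, others 4.95 to 5.08) and in Ly6e (20.8 FPKM, others 24.4 to 25.7). Psmb8 was low in A-PDK1KO replicate 5 (2.26 FPKM, others 2.81 to 2.96) and high in control replicate 2 (3.88 FPKM, others 2.92 to 3.17). Trim25 was high in control replicate 4 (4.17 FPKM, others 2.65 to 3.09).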

How the results depend on the processing

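Neither list had a called gene in the main test, and the settings tried changed this in 3 fits. Psmb10 was called with median-of-ratios factors, which gave 1 class I call, and in 1 of the fits that left out a heart each, and Bst2 in another of them, so both lists ranged from 0 to 1 calls over those fits. The medians of both lists stayed below 0 in every setting run: over the fits without 1 heart they were -0.26 to -0.11 for interferon-induced and -0.22 to -0.14 for class I genes, and among the 6 hearts with Myl7 under 10 FPKM the class I median was -0.0674. Genes called in the whole table numbered 63 on the TPM scale, 314 with scaling that left out mitochondrial and haemoglobin genes, 120 with a macrophage covariate, 4 in the 6 hearts with Myl7 under 10 FPKM, and 57 to 150 without 1 heart. The replicate block gave 153 calls in the whole table and 0 in either list. The deviations of same-numbered hearts had correlations of -0.116 to 0.0851. Such values cannot exclude a shared litter, day or batch, of which the labels say nothing.

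Signs turned for small differences. With median-of-ratios factors Tapbp was at -0.0174 and Psmb9 at -0.0015. In the 6 hearts with Myl7 under 10 FPKM, Irf1 was at 0.137, Irf9 at 0.0056, Parp14 at 0.0979, Irgm1 at 0.0664 and Psme1 at 0.0017. Over the fits without 1 heart the log2 fold change ranged from -0.1503 to 0.0184 for Ifitm2, -0.0574 to 0.0190 for Canx, -0.0173 to 0.0623 for Tapbp, -0.0238 to 0.0842 for Eif2ak2, -0.0417 to 0.1670 for Igtp, -0.0713 to 0.0119 for Ly6c1, -0.0909 to 0.0072 for Parp14, -0.0728 to 0.0103 for Psme1, -0.1086 to 0.0073 for Jak1, -0.0523 to 0.0815 for Psmb9 and from -0.1463 to 0.0033 for Irf1. The cause was not tested. Of the other single-gene values, 1114 kept their sign and call, 20 lost a call and 5 gained one. Every lost call was of Ptpn11 or Trafd1, the only such genes called in the main test. The remaining genes had no call to lose, so the 1114 do not show that calls were stable. Low levels limit the precision: Ifit1 rests on 30 to 68 reads per heart and Oas1a on 6 to 22.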

Other observations

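Genes of MHC class II presentation, which shows peptides to helper T cells, had lower means in A-PDK1KO hearts for 6 of 7 tested genes. The median log2 fold change was -0.23, and 0 were called by limma or by limma voom. Unadjusted p was under 0.05 in 2 of them by limma (15.6% of all genes) and in 0 by limma voom (15.3% of all genes). Cd74, the invariant chain and the highest of them, was at 35.2, 35.2, 53.0, 49.8 and 33.8 FPKM in A-PDK1KO hearts and at 39.0, 48.3, 53.7, 46.7 and 53.6 FPKM in control hearts. H2-Eb1, a class II beta chain, averaged 11.7 ± 2.47 FPKM in A-PDK1KO hearts and 14.1 ± 1.80 FPKM in control hearts (SD, n = 5 each). The groups overlapped in both. None of 12 markers of T and NK cells was analysed here.

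The only pathway genes called, Ptpn11 and Trafd1, lie near each other on mm10 chromosome 5, 180328 bases apart, which was noticed after their values were seen. Between them the table holds 2 genes, and neither was called: Rpl6 had a log2 fold change of -0.12 (limma adjusted p = 0.383) and Hectd4 of 0.12 (limma adjusted p = 0.642).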
